A study of Homo sapiens with 6 samples.

Results

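NFATC3 circRNAs are the closed RNA circles back-spliced from the primary transcript of NFATC3, a calcium-regulated transcription factor gene, and 4 of the 4814 circRNAs listed in the series named it as host gene. They were taken by host gene name alone. The gene itself was chosen by measured values: one of its circles, hsa_circ_0000711, had the smallest edgeR p of the MPA comparison among the 91 circRNAs with enough reads to be tested (rank 3 of 4814 with no filter), and the balance between the circles that share its start was of interest. Every difference between MPA and control given below for NFATC3 is therefore a description, with no test.

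The libraries came from total RNA of the Ishikawa line, cultured cells of a human endometrial carcinoma. Libraries 1 to 3 of the treated group were labelled MPA, and libraries 1 to 3 of the control group were labelled as cells without treatment. The labels give no dose, duration or vehicle and do not spell out MPA, and all libraries are of this 1 line. Nothing says that the libraries of a group came from separate cultures, so their spread may be technical.

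NFAT proteins wait in the cytoplasm in a phosphorylated form. When calcium rises, the phosphatase calcineurin removes phosphates from their N-terminal regulatory region, they enter the nucleus, and a Rel homology region further along the protein binds DNA. Kinases such as DYRK1A and GSK3B put phosphates back, and the exporter XPO1 carries NFAT out again. A circRNA forms when the end of an exon is spliced back to the start of the same or an upstream exon, and a read across that back-splice junction is the only part of the molecule that sets it apart from the linear mRNA.

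The circles of NFATC3 came from 2 places in the gene. Their spans and spliced lengths matched those of exons in the GENCODE 29 transcript ENST00000329524, which carries the same RefSeq name that the authors' table gives for the host (NM_004555). Coordinates are those of the table, on chromosome 16, plus strand, build hg19, the build named in the submitters' processing notes. hsa_circ_0005615 (68155890 to 68157024, 1135 bases) is exon 2 alone, closed on itself. hsa_circ_0000711 (68155890 to 68160513, 1298 bases) starts at the same base and holds exons 2 and 3. hsa_circ_0105779 (68191772 to 68200918, 373 bases) holds exons 4 and 5, and hsa_circ_0039932 (68191772 to 68208417, 514 bases) holds exons 4 to 6. All 4 are exonic in the authors' annotation, have circBase identifiers and lie wholly within coding exons, with no UTR.

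The back-splice junctions are printed here because they are the sequences that the counted reads had to cross. They were read from the exons of the GENCODE transcript, 30 bases on each side, with the end of the last exon in lower case and the start of the first exon in capitals. The first pair share the start of exon 2, and the second pair share the start of exon 4, so within a pair the junctions differ only in their lower-case part.
hsa_circ_0005615: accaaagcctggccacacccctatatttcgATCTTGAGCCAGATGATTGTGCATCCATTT
hsa_circ_0000711: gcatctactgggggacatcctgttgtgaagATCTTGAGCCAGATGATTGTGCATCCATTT
hsa_circ_0105779: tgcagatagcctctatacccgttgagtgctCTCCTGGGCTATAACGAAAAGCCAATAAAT
hsa_circ_0039932: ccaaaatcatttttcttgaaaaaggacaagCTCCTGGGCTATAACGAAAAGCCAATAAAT

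Exon 3, of 163 bases, is what hsa_circ_0000711 has and hsa_circ_0005615 lacks, and it is shown whole for that reason.
exon 3: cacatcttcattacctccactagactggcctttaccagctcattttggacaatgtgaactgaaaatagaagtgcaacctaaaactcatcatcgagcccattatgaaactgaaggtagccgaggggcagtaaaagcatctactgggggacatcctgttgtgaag

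In the linear mRNA, exon 2 codes for residues 35 to 413, the stretch that holds most of the regulatory region, and exon 3 for residues 413 to 467. Exons 4 to 6 code for residues 468 to 639, further along the protein. The length of none of the 4 circles is a multiple of 3, so the NFATC3 reading frame shifts at each back-splice. Followed across the junction, that frame met its first stop codon 7 bases into exon 2 in hsa_circ_0005615 and 45 bases into exon 2 in hsa_circ_0000711, counted to the end of the stop. In both circles of exons 4 onward it met one 14 bases into exon 4. The GC content was 47.0% and 46.7% in the exon 2 circles, and 41.0% and 40.3% in the exon 4 circles.

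**Figure D1:**
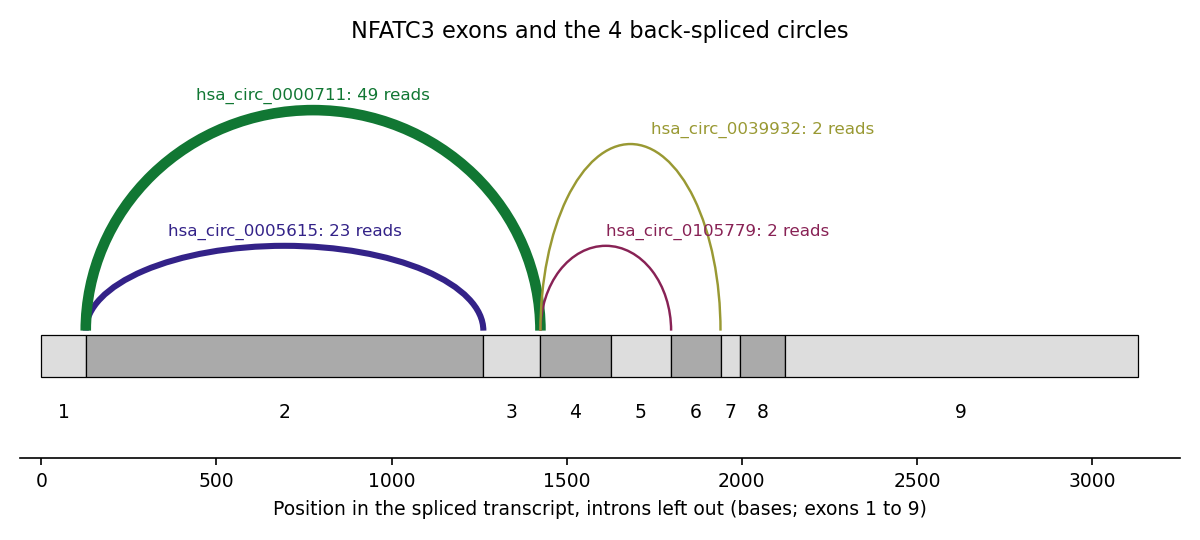
Exons 1 to 9 of NFATC3 drawn to scale in the spliced transcript (x axis, bases, introns left out), with an arc for each circle from its first to its last exon. Arc width grows with reads over the 6 libraries. The arcs of 49 and 23 reads both begin at exon 2, and those of 2 reads each begin at exon 4.

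The introns next to the exon 2 circles were of very unequal length. In GENCODE 29 the intron before exon 2 has 36202 bases, the one after exon 2 has 3326 and the one after exon 3 has 31258. For context, 3976 of the 4303 exonic circRNAs of the series could be matched to exons in the same way, and the medians of their upstream and downstream introns were 6546 and 5767 bases. Of the matched circRNAs with such an intron, 90.3% had a shorter upstream intron than exon 2 of NFATC3. A downstream intron shorter than that of hsa_circ_0000711 was found for 91.4%, and one shorter than that of hsa_circ_0005615 for 33.7%. The circles that share a start thus differ in whether they end before a long or a short intron. A start at exon 2 was common, in 1193 of the matched circRNAs, whereas circles of a single exon made up 4.30% (171), with a median length of 519 bases; 42 of these were longer than the exon 2 circle of NFATC3. Circles of 2 exons made up 19.2%, and the median was 4 exons.

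NFATC3 was among the well-read hosts, with 76 junction reads over the 6 libraries, rank 38 of 2531 host genes. Library totals ran from 3740 to 5454 junction reads, so a single read was a small but uneven share of a library, and every value below is limited by counting error. hsa_circ_0000711 held 64.5% of the NFATC3 reads, hsa_circ_0005615 held 30.3%, and the exon 4 circles held 2.63% each. In the 293 hosts with at least 4 circRNAs, the most-read circRNA held a median of 38.1% of the host's reads. By reads, hsa_circ_0000711 ranked 37 and hsa_circ_0005615 ranked 142 among all 4814 circRNAs. These shares and ranks pool both groups. In control libraries hsa_circ_0000711 had 12 reads and hsa_circ_0005615 had 15, against 37 and 8 with MPA. A back-splice read counts 1 junction per circle whatever its length, so these counts were compared without a length correction.

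hsa_circ_0000711, the circle of exons 2 and 3, was read 2, 7 and 3 times in control libraries 1 to 3, against 13, 14 and 10 times in MPA libraries 1 to 3. In reads, every MPA library lay above every control library, as for 8.79% of the 91 circRNAs whose mean over all libraries reached 5 reads; control library 2 was the highest of the controls. Its mean was 4 ± 2.65 reads without treatment against 12.3 ± 2.08 with MPA (SD, n = 3 each). As a share of all junction reads of a library, which allows for the larger MPA totals, this was 0.105% ± 0.0735 against 0.266% ± 0.073. On that scale the groups overlapped, because control library 2 (0.187%) lay just above MPA library 3 (0.183%). Shares that were higher in all MPA libraries than in any control library were found for 3.3% of the 91 circRNAs, and hsa_circ_0000711 was not one of them.

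The log2 fold change of hsa_circ_0000711 was 1.37 (SE 0.484, edgeR, MPA over control), the highest of the 91 circRNAs, whose median was 0.14. This is a ratio of 2.59 after scaling by the library totals and TMM factors. It was the only circRNA of the 91 with a log2 fold change above 1 (1.1%). The value depended on single control libraries: it was 2.09 without control library 2, 1.08 without control library 1 and 1.13 without control library 3. Among the 91 circRNAs fitted, 0 passed an FDR of 0.05 in edgeR (0.0%), so hsa_circ_0000711 did not. An unadjusted p under 0.05 was found for 2 in edgeR (2.2%) and 1 in DESeq2, which also called 0.

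**Figure D2:**
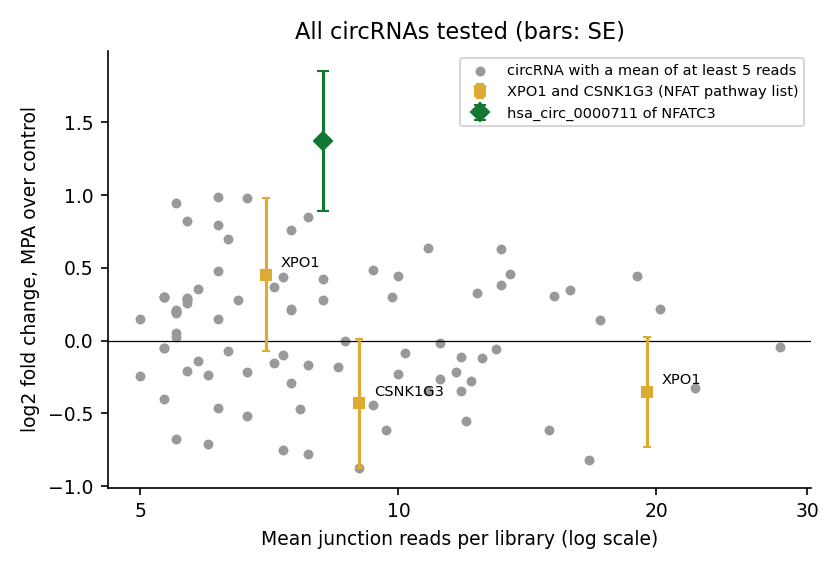
Mean junction reads per library (x axis, log scale) against the log2 fold change of MPA over control (y axis) for the 91 circRNAs that reached a mean of 5 reads; bars are SE. hsa_circ_0000711 of NFATC3 stands at 1.37, above the others, and the XPO1 and CSNK1G3 circRNAs lie between -0.43 and 0.45.

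hsa_circ_0005615, the circle of exon 2 alone, was read 5, 1 and 9 times in control libraries 1 to 3, against 1, 5 and 2 times in MPA libraries 1 to 3. The groups overlapped: control library 2 and MPA library 1 had 1 read each. The means were 5 ± 4 reads without treatment and 2.67 ± 2.08 with MPA (SD, n = 3 each), or 0.128% ± 0.107 against 0.0581% ± 0.05 of all junction reads. The difference was smaller than the spread between the control libraries. With a mean under 5 reads this circle did not enter the fit; fitted without a filter, its log2 fold change was -1.03 (SE 0.852).

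The exon 4 circles were at the limit of detection. hsa_circ_0105779 had 2 reads in control library 3 and 0 in the other 5 libraries, and hsa_circ_0039932 had 2 reads in control library 1 and 0 in the other 5. In the MPA libraries a circle with 0 reads could still make up 0.055% to 0.0691% of the junction reads (the limit at 3 counts), which is above the share that 2 reads make in either control library (0.0534% and 0.0463%). No difference between the groups was detectable for them at this depth. Of the 4 circles, 1 passed the filter of a mean of 5 reads, and it did so through its MPA reads.

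**Figure D3:**
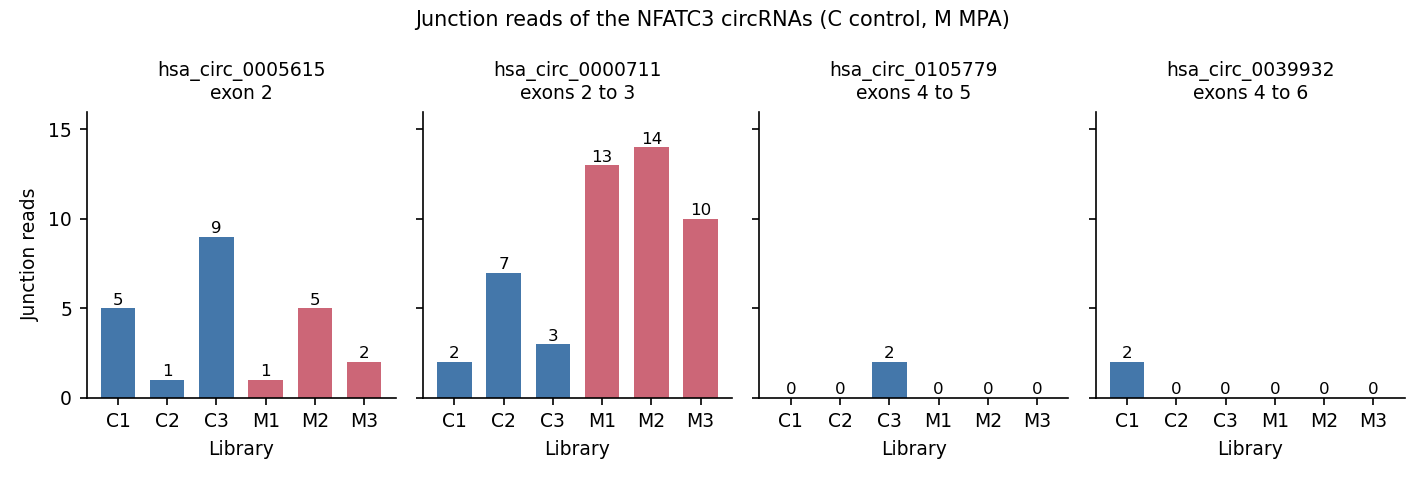
Junction reads (y axis) of the 4 NFATC3 circRNAs in each control library (C1 to C3, blue) and MPA library (M1 to M3, red). hsa_circ_0000711 has 10 to 14 reads with MPA and 2 to 7 in control, while hsa_circ_0005615 has 1 to 5 and 1 to 9.

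The exon 2 circles share a back-splice start, so each read that begins there had gone to one end or the other: the end of exon 2 or the end of exon 3. The circle with exon 3 took 2 of 7 such reads in control library 1 (28.6%, 95% interval 3.67 to 71.0), 7 of 8 in control library 2 (87.5%, 47.3 to 99.7) and 3 of 12 in control library 3 (25%, 5.49 to 57.2). It took 13 of 14 in MPA library 1 (92.9%, 66.1 to 99.8), 14 of 19 in MPA library 2 (73.7%, 48.8 to 90.9) and 10 of 12 in MPA library 3 (83.3%, 51.6 to 97.9). These intervals are exact Clopper-Pearson intervals and cover counting error only. The circle with exon 3 was the more frequent in each MPA library and in control library 2, and the circle of exon 2 alone was the more frequent in control libraries 1 and 3.

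The mean share with exon 3 was 47.0% ± 35.1 in control and 83.3% ± 9.59 in MPA libraries (SD, n = 3 each), a difference of 36.3 percentage points. The groups overlapped, because control library 2 lay above MPA libraries 2 and 3, and the difference was close to the SD of the control libraries. With control library 2 left out the difference was 56.5 points. It was 27.0 points without control library 1 and 25.3 points without control library 3. With the reads of a group added up, 12 of 27 reads (44.4%) joined exon 3 to exon 2 in control and 37 of 45 (82.2%) with MPA. That is 0.8 and 4.63 reads of the longer circle for each read of the shorter one; without control library 2 the control reads were 5 of 19 (26.3%).

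**Figure D4:**
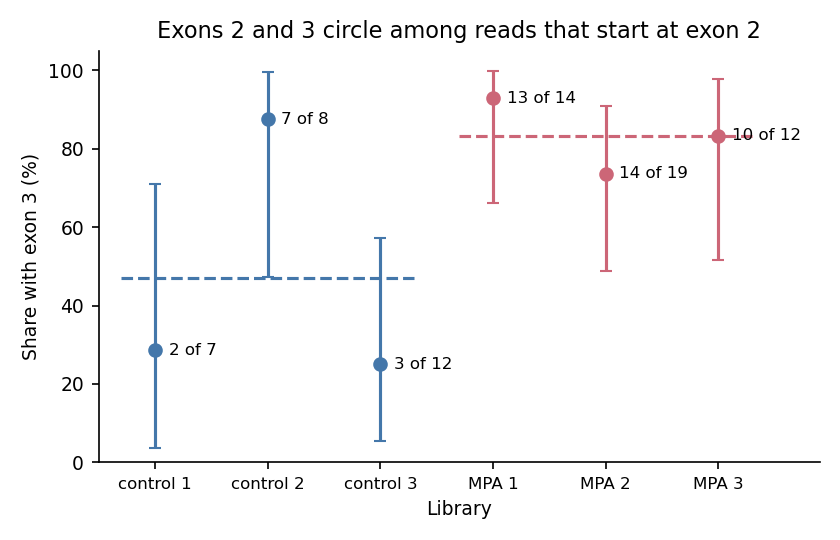
Share of the exons 2 and 3 circle among reads that start at exon 2 (y axis, percent) in each library; bars are 95% Clopper-Pearson intervals and dashed lines the group means. MPA libraries lie from 73.7% to 92.9%; control libraries 1 and 3 lie at 28.6% and 25%, and control library 2 at 87.5%.

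The use of the exon 2 start as a whole differed less. Reads that began there, over both circles, numbered 7, 8 and 12 without treatment, against 14, 19 and 12 with MPA, which is 0.232% ± 0.0808 against 0.324% ± 0.109 of all junction reads (SD, n = 3 each). With all 4 circles added up NFATC3 took 0.209%, 0.214% and 0.374% of the reads of control libraries 1 to 3 and 0.313%, 0.438% and 0.220% of those of MPA libraries 1 to 3. These groups overlapped, and the difference of 0.0583 percentage points was smaller than the spread within either group. The log2 fold change of the summed reads was 0.33 (SE 0.416, edgeR), rank 50 of 180 host genes with a mean of at least 5 reads, and 0.05 without MPA library 2. Of the 180, 0 passed an FDR of 0.05 in edgeR (0.0%) and 3 had an unadjusted p under 0.05 (1.67%); DESeq2 gave 0 for both.

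Shared starts were found throughout the table, which gives a background for the NFATC3 balance. Of 3993 back-splice starts, read in the direction of transcription, 588 were shared by at least 2 circRNAs, and 119 of these had at least 20 reads and a read in every library. The most-read circRNA of a start held a median of 75.0% of its reads, against 68.1% for NFATC3. Between the groups the mean share of that circRNA differed by a median of 11.1 percentage points in size, and NFATC3 exon 2, at 36.3, ranked 8 of 119. At 6.72% of these starts the shares of the groups did not overlap; NFATC3 exon 2 was not one of them. The starts ranked above it had 22 to 50 reads, fewer than the 72 at NFATC3 exon 2. Among the 23 starts with at least 72 reads, a limit set after the values were seen, its difference was the largest and the next was 17.2 points.

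**Figure D5:**
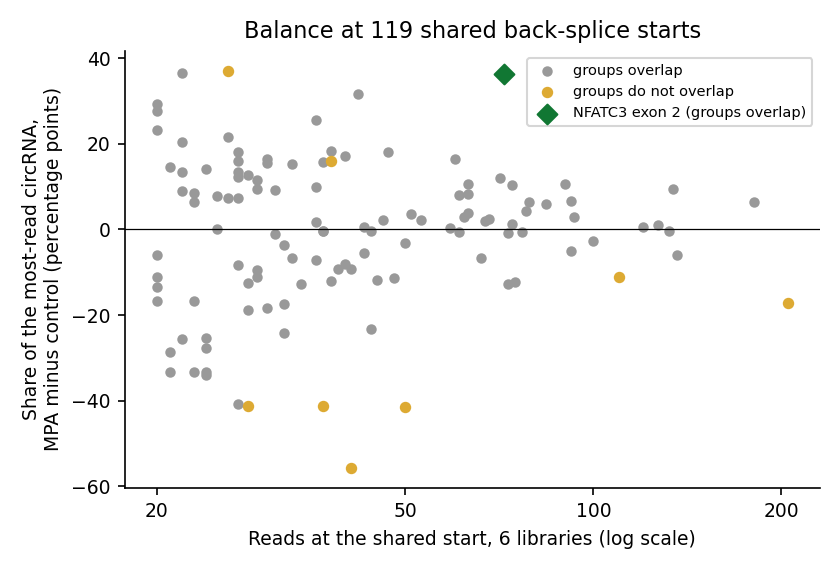
Each point is a back-splice start shared by 2 or more circRNAs: reads at the start (x axis, log scale) against the difference in the share of its most-read circRNA, MPA minus control (y axis, percentage points). The spread narrows with reads; NFATC3 exon 2 stands at 36.3 points with 72 reads.

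The circRNAs whose distribution over the 6 libraries was most like that of hsa_circ_0000711 came from ATAD2, CCDC91, MAN1A2, ZRANB1 and FAM169A. Likeness was the part of a circRNA's profile, each library's CPM as a share of their sum, that would have to move to another library to match. This was 7.46% for hsa_circ_0085465 of ATAD2, which encodes a bromodomain ATPase (3, 5 and 2 reads without and 7, 10 and 6 with MPA), and 9.72% for hsa_circ_0007723 of CCDC91 (1, 7 and 3 against 9, 9 and 5). It was 14.9% for hsa_circ_0000118 of the mannosidase gene MAN1A2, 15.02% for hsa_circ_0000268 of the deubiquitinase gene ZRANB1 and 17.2% for hsa_circ_0007158 of FAM169A. Over the 90 circRNAs of other hosts the median was 26.8% and the highest value 52.1%. The distance to hsa_circ_0005615, of the same gene and start, was 52.5%, above all of these. With 23 reads that circle was below the mean of 5 reads that the 90 reached, so counting error weighs more on it. The balance between these circles was also part of the choice of the gene, so this distance is a description. As profiles were chosen for likeness to a circRNA that is high with MPA, their own higher values with MPA carry no further information.

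Most other genes of the NFAT pathway had no circRNA analysed here. Of 60 genes on a list of calcineurin subunits, their regulators, NFAT proteins, kinases, transport factors, calcium channels and nuclear partners, 20 had a circRNA analysed here, 59 circRNAs with 452 reads in all. The series as a whole held 26060 reads over 4814 circRNAs. The circRNAs of the list took 1.83% ± 0.228 of the reads in control and 1.68% ± 0.394 in MPA libraries (SD, n = 3 each). 3 of the circRNAs had a mean of at least 5 reads, and 0 of the 3 passed the test in either direction (edgeR; 0 at an unadjusted p under 0.05). Their median log2 fold change was -0.35, with 1 above and 2 below 0, beside 48 above and 43 below among all 91.

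The calcineurin catalytic subunits PPP3CA, PPP3CB and PPP3CC had 5 reads each over all libraries. PPP3CA was read only in MPA libraries 1 and 2 (2 and 3 reads), PPP3CB only in control library 1, and PPP3CC at 1 read in control and 4 with MPA. RCAN3, a calcineurin inhibitor of the regulator of calcineurin family, had 2 reads and CABIN1, a calcineurin-binding protein, 4. No circRNA of NFATC1, NFATC2, NFATC4 or NFAT5, which were on the list, was among those analysed here. NFATC2IP, which encodes a protein that interacts with NFATC2, had 0 reads without and 3, 2 and 0 with MPA.

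Kinases that phosphorylate NFAT, or belong to families that do, had 61 reads in control and 74 with MPA over 15 circRNAs. The MPA libraries held more reads in all (14261 against 11799), and as shares these sums were 0.517% and 0.519%; the read numbers given here for other pathway hosts are likewise not scaled. DYRK1A, which phosphorylates the regulatory region and so favours export, had 1, 3 and 5 reads without and 5, 6 and 9 with MPA over 5 circRNAs, with 5 reads in both control library 3 and MPA library 1. MAPK9, the kinase JNK2, had 2, 6 and 2 against 6, 5 and 7 over 2 circRNAs. hsa_circ_0001522 of the casein kinase gene CSNK1G3 had 9, 11 and 9 against 11, 9 and 5 (log2 fold change -0.43, SE 0.442, edgeR adjusted p = 0.936). GSK3B had 0 reads in control and 3, 0 and 3 with MPA. The groups overlapped for each of these 4 hosts.

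XPO1, the nuclear export receptor, was by far the best read host of the list, with 222 reads over 15 circRNAs, 112 in control and 110 with MPA. Its main circle, hsa_circ_0001017 (chromosome 2, 61749746 to 61761038), had 25, 18 and 18 against 15, 25 and 16 reads (log2 fold change -0.35, SE 0.379). hsa_circ_0001016 (61749746 to 61753656) had 9, 4 and 3 against 3, 15 and 8 (0.45, SE 0.526), and both had an edgeR adjusted p of 0.936. The import receptor gene KPNB1 had 9 reads in control and 13 with MPA over 6 circRNAs. The acetyltransferase genes EP300 and CREBBP, whose products act as NFAT coactivators in the nucleus, had 12 against 7 and 3 against 6 reads.

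As a check of the cell type, circRNAs of 3 of 9 epithelial marker genes were read (8 reads), of 1 of 7 fibroblast and stromal genes (3 reads), and of 0 of 4 endothelial and 0 of 4 leucocyte genes. Marker genes that form few circles cannot be judged in such a table. Linear NFATC3 mRNA was not measured, so a circle that took more of the junction reads cannot be told apart from a host transcribed more, or from fewer reads of other circRNAs.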

How the data were processed

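For each circRNA, the authors deposited a count of reads over its back-splice junction in 3 control and 3 MPA libraries, not normalized per the file headers. CASAVA 1.8, BWA and hg19 are named in the submitters' processing notes, and no circRNA caller is. The deposited log2 CPM values (6 columns, made with edgeR per the file headers) were not used. Predicted lengths in bases are another deposited column. Libraries 1 to 3 held 4316, 3740 and 3743 reads without treatment and 4468, 4339 and 5454 with MPA.

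All circRNAs that averaged 5 reads or more per library were fitted together with edgeR 4.0.16 in R 4.3.3 (TMM, robust quasi-likelihood, Benjamini-Hochberg adjustment, FDR 0.05), and host gene sums likewise (10 circRNAs without a host name left out); SE was computed back from the quasi-likelihood F. DESeq2 1.42.0 was the other count test. This fit was first tested on simulated counts. Libraries of a group were no copies of each other (chi-square per degree of freedom from 1.41 to 1.82, largest chi-square p = 0.00581).

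Exons were assigned by matching the genomic span and spliced length of a circRNA to exons of its host transcript in GENCODE 29; no coordinates were converted between builds. Other steps used pandas 2.3.3, scipy 1.17.1 and matplotlib 3.10.9 under Python 3.11.15. The genes named were all NFATC3 circRNAs, the tested circRNAs and the 5 most-read hosts of the pathway list, and the 5 closest profiles; other pathway hosts were named by role after their values were seen. The members, the lists and the tests were chosen with earlier results of these data known.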

Additional observations from a re-analysis of the deposited data

How the results depend on the processing

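The log2 fold change of hsa_circ_0000711 stayed above 0 under every alternative run. The runs were DESeq2, RLE scaling, library totals only, a mean filter of 2, no filter, the replicate block and each library left out. Its reads were higher in every MPA library than in every control library, so the sign could hardly change. Its edgeR p ranked 1 of 91 in the main fit, 3 without control library 1 and 4 without control library 3. With single libraries left out the log2 fold change ran from 1.08 to 2.09, the last without control library 2. The summed NFATC3 value ran from 0.05 to 0.62 in the same way, and the difference in the share with exon 3 from 25.3 to 56.5 percentage points. The share of NFATC3 in all junction reads differed by 0.00119 to 0.113 percentage points with single libraries left out, and by 0.22 points when the denominator was reads of circRNAs read in all 6 libraries, a smaller denominator. The number of circRNAs called was 0 to 1 with single libraries left out, and that of host genes 0 to 1; the 1 call at each level came without control library 2 and was not NFATC3. Correlations of same-numbered deviations were -0.07, 0.16 and 0.33, and those of differently numbered libraries ran from -0.29 to 0.11. So few correlations cannot settle whether replicate numbers pair the libraries. With the replicate block hsa_circ_0000711 was at 1.40, the sum at 0.32, and 0 circRNAs and 0 host genes were called. The rank of NFATC3 among shared starts, added after the data were seen, was 14 of 163 with a minimum of 10 reads, 4 of 75 with 30, and 3 without control library 2, in place of 8. Counts under 20 reads per library limit each of these values.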
